A study of Homo sapiens with 3 samples.

Results

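The clustered protocadherins measured here were 42 genes carried by 48 probes, out of 29846 gene names and 41000 gene probes on the array. Members were the probes of genes whose name in the scanner files begins with PCDHA, PCDHB or PCDHG, whatever their signal. The alpha cluster gave 7 genes with 7 probes, the beta cluster 18 genes with 22 probes and the gamma cluster 17 genes with 19 probes. All lie in 1 stretch of chromosome 5, in the order alpha, beta, gamma.

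The RNA source was YB5, cells cloned from SW48 (colon cancer). All groups carry its GFP reporter, integrated once and silent, with methylation at the CMV promoter in front of it. Cells were given decitabine at 25 nM, carboplatin at 20 µM, both drugs at these doses, or DMSO alone as control, once a day on days 1 to 4 (4 doses), and RNA was taken on day 6. Each treatment was measured on 1 two-colour Agilent whole-genome array, with treated RNA in the green channel (Cy3) and control RNA in the red (Cy5), so that the comparisons ask how each drug and their combination changed these genes. There were 3 arrays, no replicates and no exchange of dyes, so no test was run, no p-value is given; precision is set by the small number of arrays.

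Clustered protocadherins are cell surface adhesion proteins best known from neurons, where each cell switches on its own few members and so gains an identity that neighbouring cells can read. In the alpha and gamma clusters each variable first exon has its own promoter and is spliced to constant exons shared by the whole cluster, whereas each beta gene is a single exon. DNA methylation of these promoters is known to keep members silent, the factor CTCF and the cohesin ring bind active ones, and the region is known to gain methylation as a block in some cancers, colon cancer among them. Decitabine is a cytosine analogue that traps DNA methyltransferases and so lowers DNA methylation, and carboplatin forms platinum adducts on DNA.

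The arrays are named by their labels throughout (the combination-labelled array is the one of both drugs), for a reason that the data give. Of 53 genes published as lowered by carboplatin in these cells, 40 fell at least 1.5-fold on the decitabine-labelled array, 4 on the carboplatin-labelled array and 37 on the combination-labelled array, with median log2 changes of -0.73, -0.15 and -0.77. The contrast between the single-drug arrays thus ran against their labels for that gene list. Among genes with measured promoter methylation, the authors also published more genes changed 1.5-fold by carboplatin than by decitabine. Here, outside the spot columns described next, 4.01 % and 3.83 % of all probes were higher and lower on the decitabine-labelled array. On the carboplatin-labelled array 1.98 % and 1.11 % were, so this contrast too ran against the labels. CBX5 mRNA was also published as lowered by carboplatin in these cells. Its log2 changes were 0.18, -0.67 and -1.22 in the same order of arrays. The 0.18 comes from the spot columns described next, so for this gene the contrast between the single-drug arrays is not measured. The values do not settle the labels, and every direction below that is tied to a drug rests on the labels. No array was reassigned.

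A second property of the arrays bears on 5 of the 48 probes. Within the first 9 spot columns of the decitabine-labelled array the median log2 change was 0.75, against -0.02 over the rest of that array, while the same columns read -0.03 and 0.01 on the other arrays. The members spotted there are PCDHA11, PCDHAC1, PCDHB16, PCDHGB2 and 1 of the 2 probes of PCDHB12. Repeated spots of 264 probes had a pooled SD of 0.23 (log2) on this array and of 0.0786 without those columns, against 0.0751 and 0.0769 on the carboplatin- and combination-labelled arrays.

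The cells were checked against markers of colon epithelium and of other cell types. Of 11 colon epithelium markers, 6 were well above background in all 6 channels, that is in the treated and the control channel of each array, by the scanner software's own flag. KRT18, a keratin of simple epithelia, had control signals of 146310, 147034 and 124009 units on the decitabine-, carboplatin- and combination-labelled arrays, and CDX2, an intestinal transcription factor, had 2301, 1824 and 1779. The related factor CDX1 was well above background in no channel. Markers of other cell types were detected in part. Of 9 neuron markers 3 were above background in all 6 channels and 4 in none (SNAP25, MAP2, NEFL and ELAVL4). TUBB3, a neuronal tubulin, had control signals of 37203, 40055 and 31869, SYT1, a synaptic vesicle protein, had 1542, 1253 and 1257, and NEFM, a neurofilament subunit, had 169, 155 and 139. Of 5 fibroblast markers the collagen COL1A1 was above background in all 6 channels and COL1A2 and COL3A1 in none. Of 4 leukocyte markers CD14 was above background in all 6 channels, CD3E in 4 and PTPRC in none.

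Most clustered protocadherin probes were at background. In no channel of any array were 25 of the 48 members (52.1 %) well above background, against 26.8 % of all gene probes. All 6 channels were above background for 14 members (29.2 %), against 63.0 % of all. The clusters differed in this: 5 of 7 alpha probes, 6 of 22 beta probes and 3 of 19 gamma probes passed in all 6 channels, while 2, 11 and 12 passed in none. These are counts of flags with no test, and several probes of a cluster can share a target.

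In every channel members passed less often than probes overall. On the decitabine-labelled array 14 members passed in the treated channel and 18 in the control channel, where 65.3 % and 68.5 % of all probes passed. On the carboplatin-labelled array 22 and 21 members passed, against 68 % and 69.9 % of all probes. On the combination-labelled array 19 and 18 passed, against 68 % and 67.8 %. No member passed in the treated channel alone on the decitabine-labelled array, and 4 passed in the control channel alone: PCDHB8, PCDHB12, PCDHGC4 and PCDHGC5. Of all 41000 gene probes, 603 passed in the treated channel alone on that array and 1944 in the control channel alone. PCDHGA7 on the carboplatin-labelled array and PCDHB12 on the combination-labelled array passed in the treated channel alone, as did 314 and 765 of all gene probes on these arrays. Such small counts of members are not read against these. As processed here none of the 6 member probes that passed in 1 channel alone differed by 1.5-fold between channels. On the decitabine-labelled array the sign of PCDHB8, PCDHGC4 and PCDHGC5 turned with median centring (0.04, 0.09 and 0.20), while the log ratio of the scanner software gave -1.32 for PCDHB12, -0.65 for PCDHGC4 and -0.73 for PCDHGC5, and 1.26 for PCDHGA7 on the carboplatin-labelled array.

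**Figure D1:**
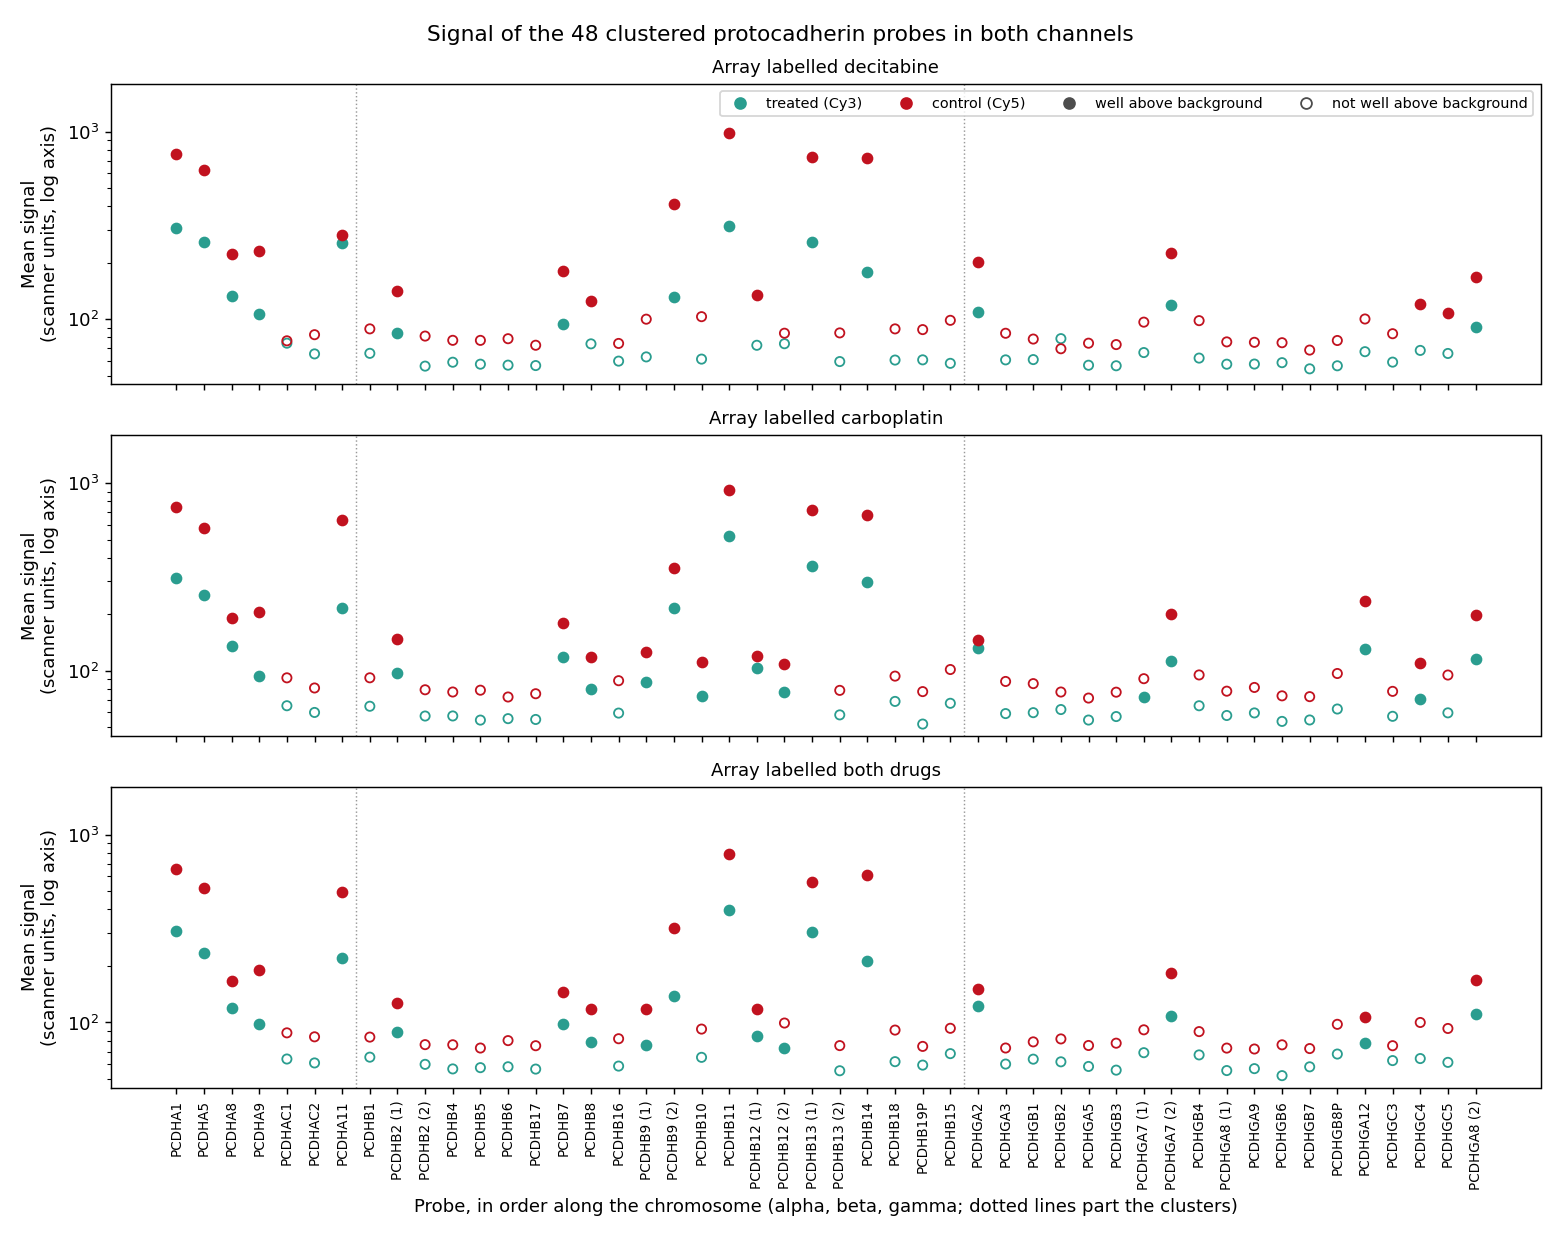
Mean signal (scanner units, log axis) of the 48 probes along the chromosome on each of the 3 arrays, with the treated channel in green and the control channel in red; filled points were well above background and open points were not, and numbers in brackets tell apart the probes of 1 gene. Filled points gather in the alpha cluster and in a few beta probes, and 25 probes are open in every channel.

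Few members changed 1.5-fold, and 3 of the 5 calls were beta genes that were lower in treated cells. On the decitabine-labelled array 1 member was at least 1.5-fold higher and 2 were lower, that is 1 and 2 of 48, while 9.14 % and 3.6 % of all probes were higher and lower. For the carboplatin-labelled array these were 1 and 0, against 2.01 % and 1.13 % of all. On the combination-labelled array 0 were higher and 1 lower, against 5.69 % and 4.47 %. Counts of 0 to 2 among 48 probes are too small to read against these shares. In bulk RNA, fewer cells that express a gene and less of its RNA per cell cannot be told apart. The changed members were PCDHA11, higher on the decitabine-labelled array, PCDHB14 and PCDHB9, lower on it, PCDHGA2, higher on the carboplatin-labelled array, and PCDHB14 again, lower on the combination-labelled array. PCDHB11, at a log2 change of -0.58 on the decitabine-labelled array, fell just short of the threshold of 0.58 on the log2 scale, and PCDHB9, at -0.67, lay just past it.

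**Figure D2:**
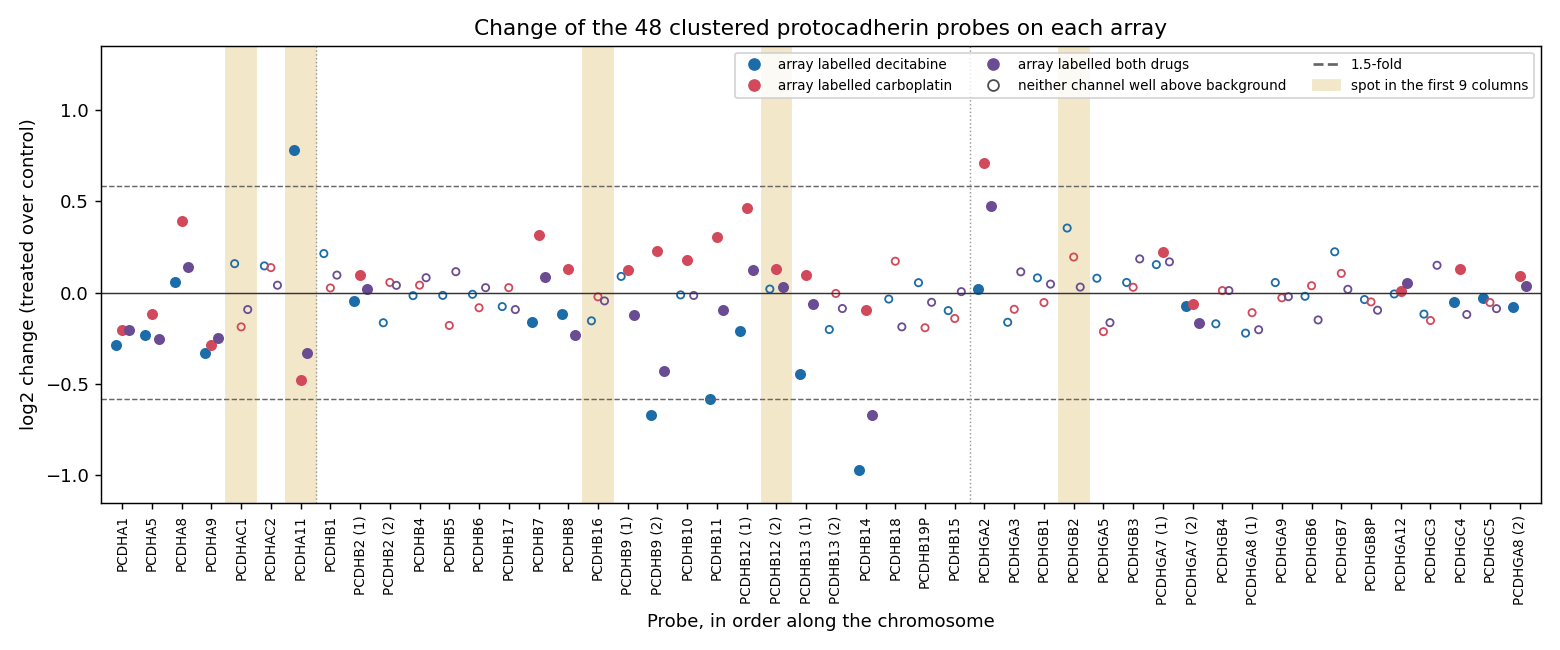
log2 change (treated over control) of the 48 probes along the chromosome on the 3 arrays; filled points had a channel well above background, dashed lines mark 1.5-fold, and shaded probes were spotted in the first 9 columns. PCDHB14 reaches -0.97 on the decitabine-labelled array, PCDHGA2 reaches 0.71 on the carboplatin-labelled array, and the single high point of the decitabine-labelled array, PCDHA11 at 0.78, is shaded.

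Median changes of whole clusters differed in sign and size. The beta cluster had median log2 changes of -0.09, 0.08 and -0.03 on the decitabine-, carboplatin- and combination-labelled arrays, and the gamma cluster had -0.02, 0.01 and 0.02. The medians of all gene probes were 0.01, -0.01 and 0.00 on the same arrays. With median centring in place of loess these cluster medians became 0.22, 0.42 and 0.21 for beta and 0.25, 0.43 and 0.24 for gamma, while the median of all probes was 0.01 on each array; the cause was not tested. The alpha cluster had medians of 0.06, -0.19 and -0.21, and the first became -0.22 without the first 9 columns of spots, which hold 2 of its 7 probes.

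Outside the first 9 columns, the members with the 3 widest differences between the single-drug arrays were beta genes. PCDHB14, PCDHB11, PCDHB9 and PCDHB13 encode single-exon protocadherins that bind like proteins on neighbouring cells. PCDHB14 (probe at chr5:140605528-140605587, GRCh37) had treated signals of 179, 299 and 214 units on the decitabine-, carboplatin- and combination-labelled arrays, against control signals of 726, 678 and 613. Signals in red were higher than in green over the whole array (medians over gene probes of 297, 315 and 282 units in red and 166, 163 and 167 in green), so that changes are read after normalization and not from these units. The treated signal was lowest on the decitabine-labelled array and highest on the carboplatin-labelled array, and after scaling the treated levels (8.03, 8.75 and 8.24 on the log2 scale) all lay below the lowest control level, 8.85. Its log2 changes were -0.97, -0.09 and -0.67, or 0.51, 0.94 and 0.63 times the control, with an SD of 0.08 among the 3 control channels (log2 level, after scaling between arrays). The sources do not say whether one extract filled the 3 control channels, so this SD may be technical only.

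PCDHB11 had treated signals of 313, 524 and 397 units against control signals of 984, 921 and 787, in the same order of arrays. Its log2 changes were -0.58, 0.31 and -0.10 (control SD 0.10). The treated channel ranged over 0.75 log2 units between arrays and the control channel over 0.19, so that most of the difference lay in the treated channels. On the carboplatin-labelled array its sign turned with median centring, to -0.04.

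PCDHB9 is carried by 2 probes. The probe at chr5:140570085-140570144 had treated signals of 132, 216 and 139 units against 412, 354 and 318 in the controls, and log2 changes of -0.67, 0.23 and -0.43 (control SD 0.16). The other probe of PCDHB9 was well above background in 4 of the 6 channels, none of them on the decitabine-labelled array, and had log2 changes of 0.09, 0.13 and -0.12; the first has no measured size and was -0.34 in the authors' table, -0.21 with median signals, -1.13 with the scanner log ratio and 0.36 with median centring. Likewise PCDHB13 had log2 changes of -0.45, 0.09 and -0.06 (control SD 0.12) on the probe at chr5:140595978-140596037, with treated signals of 256, 360 and 302 units against 730, 716 and 560, while its other probe was above background nowhere. The values given for these genes therefore rest on 1 probe each. With median centring PCDHB13 had -0.81 on the decitabine-labelled array, past 1.5-fold, and its sign on the carboplatin-labelled array turned, to -0.20.

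PCDHB7 and PCDHB2 complete the beta probes that were above background in all 6 channels. PCDHB7 had log2 changes of -0.16, 0.31 and 0.08, with treated signals of 94.5, 119 and 98.2 units against 180, 180 and 145. PCDHB2 had -0.04, 0.10 and 0.02, with treated signals of 84.5, 97.5 and 89.2 against 141, 148 and 127. In both genes the signals were low, and those of PCDHB2 were the nearer to negative control spots. Medians of these spots ran from 56.3 to 57.5 units in green and from 74.1 to 74.9 in red. This PCDHB2 probe also matches PCDHB3, and the other probe of PCDHB2, which matches that gene alone, was above background in no channel.

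The 6 beta probes shared 1 order of arrays. All 6 were below 0 on the decitabine-labelled array, 5 of 6 were above 0 on the carboplatin-labelled array, and in 6 of 6 the change on the combination-labelled array lay between. Among the 25823 gene probes above background in all 6 channels 47.2 % were below 0 on the decitabine-labelled array, 48.9 % were above 0 on the carboplatin-labelled array, and 20 % had this order of the 3 arrays. The median log2 changes of the 6 were -0.52, 0.16 and -0.08, against 0.02, -0.01 and 0.00 over those probes. In 6 of 6 the treated channel ranged over more than the control channel between arrays, and in 6 of 6 the treated level was highest on the carboplatin-labelled array. In 4 of 6 it was lowest on the decitabine-labelled array, and in PCDHB9 and PCDHB7 it was lowest on the combination-labelled one. Among alpha and gamma probes above background in all 6 channels, 2 of 5 and 2 of 3 had the same order of changes. The treated channel ranged over more than the control channel in 1 of 5 alpha and 2 of 3 gamma probes. Its level was highest on the carboplatin-labelled array in 2 of 5 and 2 of 3. Shares of all gene probes with these traits of the channels were not taken. In the beta probes the order held in 6 of 6 under every processing alternative run on single probes, but the signs did not. With median centring 5 of 6 were below 0 on the decitabine-labelled array and 3 of 6 above 0 on the carboplatin-labelled array. This order was noted after the values were seen, paralogous probes share sequence, and the 3 arrays are single measurements, so it is a description with no test.

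Some cell type markers moved between the arrays as well. VIL1, a microvillus protein of intestinal epithelium, had log2 changes of -0.88, 1.87 and 0.19 on the decitabine-, carboplatin- and combination-labelled arrays. COL1A1 had -0.40, 0.29 and -0.29, and both had the same order as the 6 beta probes. No other of the 11 colon epithelium markers had this order. For instance, KRT18 had 0.83, 0.50 and 1.14, CDX2 had -0.03, 0.32 and -0.05, and CDH17 had -0.68, -0.48 and -0.87. Of the 11 colon epithelium markers 3 were higher and 2 lower on the decitabine-labelled array, against 9.14 % and 3.6 % of all probes. Without the first 9 columns 1 and 2 were, against 4.01 % and 3.83 %. On the carboplatin-labelled array 2 were higher and 0 lower, against 2.01 % and 1.13 %. On the combination-labelled array 3 were higher and 1 lower, against 5.69 % and 4.47 %, and KRT18 and KRT19 had 1.14 and 0.85 there. The list is too short to read against these shares. Of the 5 fibroblast markers 2 were higher on the carboplatin-labelled array, against 2.01 % of all probes. They were DCN and LUM, each above background in 1 channel of the 6. Both had the order of the beta probes, as had COL3A1, which was at background. The part of all these markers in the order of the beta probes was not tested.

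**Figure D3:**
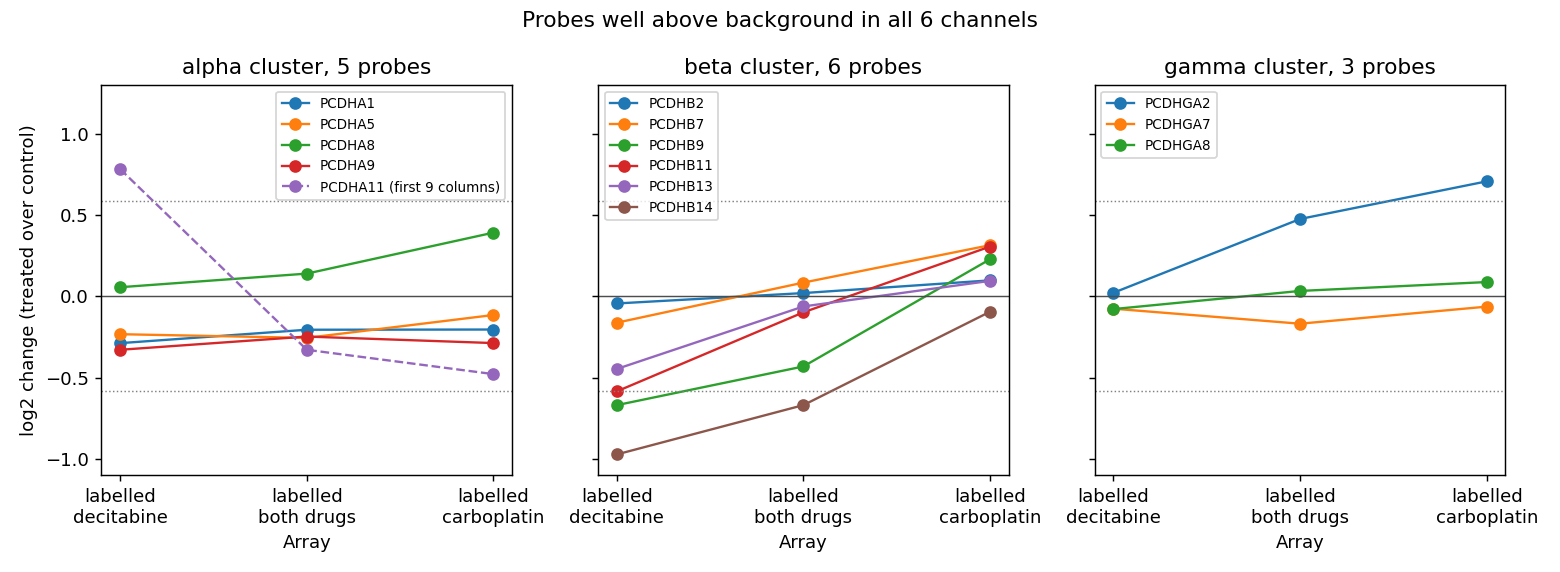
log2 change (treated over control) on the 3 arrays, ordered decitabine, both drugs, carboplatin, for the 14 probes well above background in all 6 channels, 1 line per probe; dotted lines mark 1.5-fold. All 6 beta lines rise from left to right, as do 2 of 5 alpha and 2 of 3 gamma lines. PCDHA11 (dashed), whose spot lies in the first 9 columns, is the one line that falls from 0.78 to -0.48.

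The difference between the single-drug arrays cancels what a probe prefers in dye, since the dyes were the same on each. The log2 change on the decitabine-labelled array lay at least 1.5-fold below that on the carboplatin-labelled array for 5 members, at -0.90 for PCDHB9, -0.89 for PCDHB11, -0.88 for PCDHB14, -0.69 for PCDHGA2 and -0.67 for PCDHB12, whose treated channel was not well above background on the former array so that its size is not measured, where 3.13 % of all probes were that far below. It lay as far above for 1 member, PCDHA11 at 1.26, against 8.34 % of all. Among probes above background in all 6 channels 4.43 % were that far below, and 5.48 % were at least 1.5-fold lower on the decitabine-labelled array alone. Of the 6 beta probes described, 3 were that far below. In the authors' own normalized table PCDHB9, PCDHB11 and PCDHB14 differed by -0.71, -0.82 and -0.82, and PCDHB12 and PCDHGA2 by -0.50 and -0.30, short of 1.5-fold. With the log ratio of the scanner software PCDHB9, PCDHB12 and PCDHGA2 differed by -1.75, -2.63 and -1.40, and PCDHB11 and PCDHB14 by -0.95 and -1.09. The difference of PCDHA11 was 0.19 in the authors' table and 0.05 with the scanner log ratio. PCDHB12, a further beta gene, was above background in 5 of 6 channels on this probe, and its second probe, in the first 9 columns and above background in neither channel of the decitabine-labelled array, gives no measured difference.

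**Figure D4:**
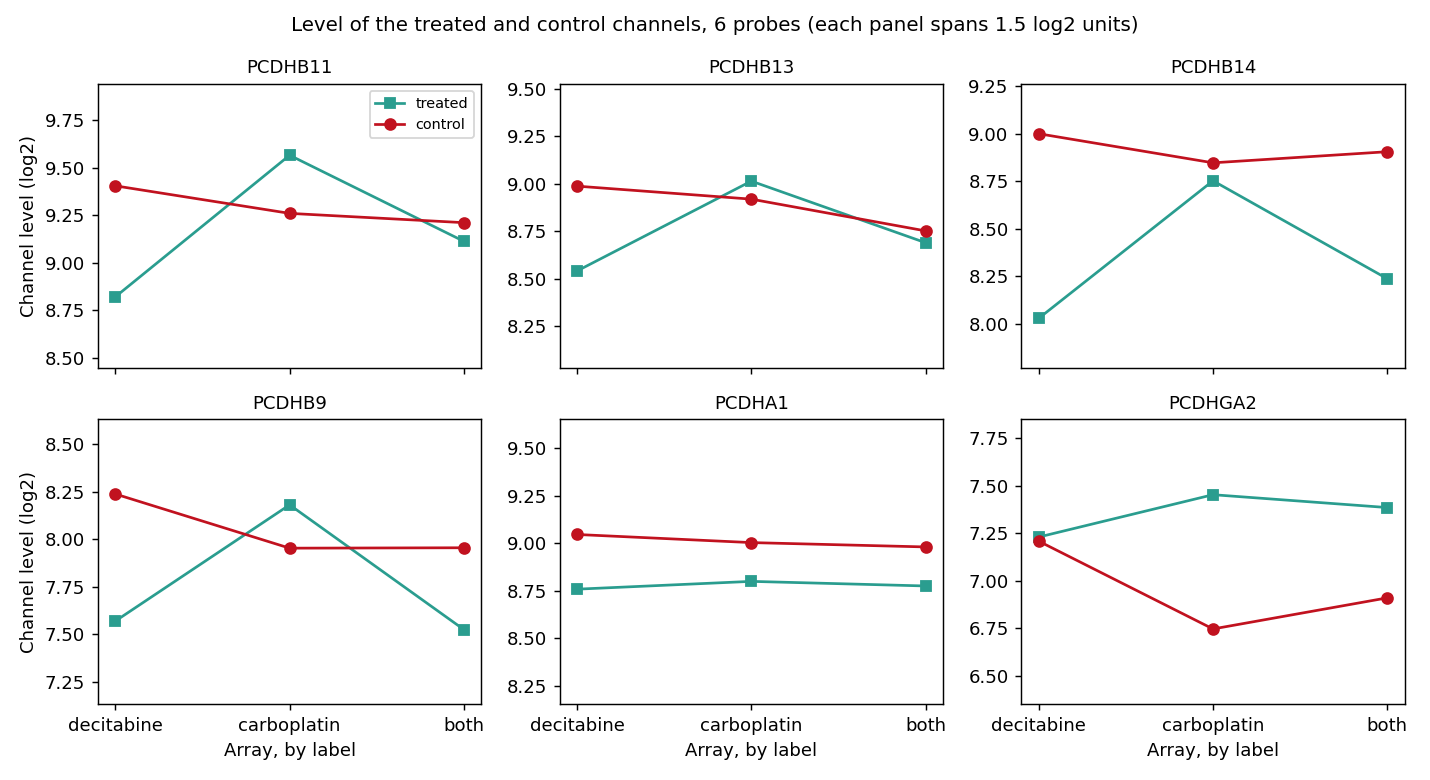
Channel level (log2, scaled between arrays) of the treated (squares) and control (circles) channels of 6 probes on the 3 arrays, named by label; lines join the values of 1 channel, and each panel spans 1.5 log2 units. In PCDHB11, PCDHB13, PCDHB14 and PCDHB9 the treated channel is highest on the carboplatin-labelled array, in PCDHA1 the channels range over 0.04 and 0.07, and in PCDHGA2 the control channel is lowest there.

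The promoters of the beta genes share a short sequence with most of the others of the region. Windows of 30 bases are shown because the region's promoters are known for a conserved element with the core CGCT, printed in capitals. They were read from RefSeq promoter sequences of GRCh38.p14, which cover 250 bases before to 50 after the annotated start on the plus strand, and 34 of the 42 genes had such an entry. PCDHB11 is among the genes without one.
PCDHB14: agacacatggtggCGCTacaggataagacg
PCDHB9: agccacaaggtggCGCTgcagactgaagag
PCDHB13: ggacgcgtggtggCGCTgcaggataagaag
PCDHB7: aaacgcaaggtggCGCTgctggctaaaaag
PCDHB2: agacgcggggtggCGCTgcagccttagaag
PCDHB12: agacgcgtggtggCGCTgcaggataatatc
These windows lie before the start, PCDHB14 at chr5:141223266-141223295 and PCDHB9 at chr5:141187077-141187106 (GRCh38.p14). The sequence GTGGCGCTG, searched on both strands, was in 12 of the 14 beta promoters of the table and in 0.572 % of all 35116 promoters of that length. The promoter of PCDHB14 does not hold these letters. CGCT alone, also searched on both strands and contained in the longer sequence, was in 14 of 14 beta promoters and in 70.0 % of all. A match describes the sequence and is no evidence of binding in these cells.

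CpG dinucleotides, the sites that DNA methyltransferases act on, were few in the beta promoters. The 14 beta promoters held a median of 7.5 CpGs per promoter sequence (5 to 12), the 13 alpha promoters 7 (3 to 27) and the 25 gamma promoters 10 (2 to 25), against a median of 14 over all promoters. The highest counts were 27 in PCDHAC1 and 25 in a promoter of PCDHGB6, and those of the other C-type genes with an entry were 15 in PCDHAC2, 18 in PCDHGC3, and 23 and 24 in the promoters of PCDHGC4. Methylation was not measured on these arrays.

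The alpha cluster had the largest share of detected probes. PCDHA1 had treated signals of 306, 313 and 307 units on the decitabine-, carboplatin- and combination-labelled arrays against control signals of 759, 748 and 658, and log2 changes of -0.29, -0.20 and -0.21 (control SD 0.03). PCDHA5 had 257, 254 and 236 units against 623, 574 and 518, and log2 changes of -0.23, -0.11 and -0.26 (control SD 0.09). Both were slightly lower than control on every array, by less than 1.5-fold, although with median centring they reached -0.67 and -0.59 on the decitabine-labelled array. For both, a fixed dye preference of the probe cannot be told apart from such a change.

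PCDHA9 had log2 changes of -0.33, -0.29 and -0.25 (control SD 0.10), close to each other on the 3 arrays, and -0.52, -0.70 and -0.70 with the scanner log ratio. PCDHA8 had 0.06, 0.39 and 0.14 (control SD 0.15). With the scanner log ratio it had 0.23 and 0.66 on the decitabine- and carboplatin-labelled arrays, the second past 1.5-fold. Median centring turned its sign on the decitabine-labelled array, to -0.08. The difference between the single-drug arrays was -0.08 for PCDHA1, -0.12 for PCDHA5, -0.04 for PCDHA9 and -0.34 for PCDHA8, so that none of these differed by 1.5-fold.

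PCDHA11 was the exception and its spot lies in the first 9 columns. Its treated signals were 256, 216 and 220 units and its control signals 281, 640 and 496, so that the control channel of the decitabine-labelled array stood apart and the treated channels did not. The log2 changes were 0.78, -0.48 and -0.33, with a control SD of 0.60. In the authors' table the change on the decitabine-labelled array was 0.08, and with the log ratio of the scanner software it was -0.56. The probe lies at chr5:140390896-140390955, past the variable exons, and its accessions in the files also name PCDHAC2, PCDHA9 and PCDHAC1, so that it reads the shared end of the cluster's transcripts.

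By the accessions that the files list, 4 of the 7 alpha probes belong to more than 1 gene. Thus the PCDHA1 probe also matches PCDHA6, PCDHA8 and PCDHA7, and the PCDHA5 probe also PCDHA12, PCDHA8 and PCDHA10. Over the whole family 11 of 48 probes matched more than 1 gene of the RefSeq table, 4 of 7 in alpha, 1 of 22 in beta and 6 of 19 in gamma. The 2 alpha probes are printed to show the overlap, with the longest run of bases they share in capitals.
PCDHA1: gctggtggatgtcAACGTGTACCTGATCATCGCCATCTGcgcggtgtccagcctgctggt
PCDHA5: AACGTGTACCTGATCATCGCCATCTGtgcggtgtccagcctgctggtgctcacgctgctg
The shared run is 26 bases long. The probes lie at chr5:140167951-140168010 and chr5:140203446-140203505 (GRCh37), in the variable exons.

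Alpha promoters carried the conserved core in another setting, shown for 4 of the 5 genes whose probes were above background in all 6 channels. The promoter of the fifth, PCDHA9, did not hold CGCT on either strand, while 12 of 13 alpha promoters did.
PCDHA1: ggccacatgatgtCGCTgtacaccacaaag
PCDHA5: atccacatgatgtCGCTggacaccggaagg
PCDHA8: agccacatgatgtCGCTgtctaccaagaag
PCDHA11: aggcgcaaggtgtCGCTctttacttggtgg
The sequence ATGTCGCTG, on either strand, was in 6 of 13 alpha promoters, in 0 of 14 beta and 0 of 25 gamma promoters, and in 0.0854 % of all.

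The gamma cluster was mostly below detection. PCDHGA2 had treated signals of 109, 132 and 123 units and control signals of 201, 146 and 151, and log2 changes of 0.02, 0.71 and 0.48. The control level fell from 7.21 on the decitabine-labelled array to 6.75 and 6.91 on the carboplatin- and combination-labelled arrays (SD 0.23), a range of 0.46 that is wider than the 0.22 of the treated level. The call of PCDHGA2 on the carboplatin-labelled array thus moved with its control channel, and its change was 0.49 in the authors' table, under 1.5-fold.

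PCDHGA12 stood out in a different way. Its signals were 67.1 and 100 units in the treated and control channels of the decitabine-labelled array, 130 and 234 on the carboplatin-labelled array, and 77.6 and 107 on the combination-labelled array. Both channels of the carboplatin-labelled array were high together, so that the log2 changes were -0.01, 0.01 and 0.05 while the control SD was 0.57. In the authors' table the log2 changes of PCDHGA12 were -0.36, 0.59 and -0.22, the second past 1.5-fold. PCDHGA12 and PCDHA11 had the widest control spread of the members, where the median was 0.10 (0.08 over all gene probes).

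PCDHGA7 and PCDHGA8 were the other gamma genes above background in all 6 channels, each on 1 of its 2 probes. PCDHGA7 had log2 changes of -0.08, -0.06 and -0.17. PCDHGA8 had -0.08, 0.09 and 0.03 on a probe at chr5:140892394-140892453, past the last variable exon, whose accessions also name PCDHGA11, PCDHGA2 and PCDHGA12. It therefore reads the constant end of gamma transcripts, and it moved by less than 1.5-fold on each array. The second probe of PCDHGA8, in its own variable exon, was above background in no channel.

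The probes of PCDHGA2 and PCDHGA3 are printed because they overlap in their target sequence while only the former was above background; the shared run is in capitals.
PCDHGA2: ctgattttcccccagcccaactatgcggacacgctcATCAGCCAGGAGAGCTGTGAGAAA
PCDHGA3: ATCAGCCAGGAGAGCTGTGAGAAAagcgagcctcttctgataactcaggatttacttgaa
The run is 24 bases long. By accession the PCDHGA2 probe also matches PCDHGA3, PCDHGA1 and PCDHGA11.

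Gamma promoters held the core in yet another setting, here for the same pair.
PCDHGA2: ggcctctgagcgtCGCTgttgaccacctaa
PCDHGA3: ggcctcttagtgtCGCTgttgaccactcaa
The sequence CGCTGTT, on either strand, was in 14 of 25 gamma promoters, 1 of 14 beta and 0 of 13 alpha promoters, and in 2.26 % of all.

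C-type members, which in neurons are expressed more widely than the others, were at or near background. PCDHAC1, PCDHAC2 and PCDHGC3 were well above background in no channel. PCDHGC4 was so in 3 channels and PCDHGC5 in 1. Their log2 changes lay between -0.19 and 0.16 on the 3 arrays, with PCDHAC1 giving both ends of this range. Its control signals were 76.7, 91.8 and 88.1 units, and the lowest came from the decitabine-labelled array, where its spot lies in the first 9 columns.

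The 25 members that passed nowhere are given as a range only. Their log2 changes ran from -0.22 to 0.35 on the decitabine-labelled array, from -0.21 to 0.19 on the carboplatin-labelled array and from -0.20 to 0.18 on the combination-labelled array. The SD of repeated dim spots outside the first 9 columns was 0.11 on each array. The highest of the log2 changes, 0.35, was that of PCDHGB2, inside those columns, to which this SD does not apply. At this signal a fall could not be seen, and these values do not show that the genes did not change.

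Changes with both drugs were set against the sum of the single-drug changes. The log2 change on the combination-labelled array minus that sum had a median of 0.00 over the 48 members, 25 of them at background, and of -0.44 with median centring. Over all gene probes the median was -0.01 as processed here. The difference lay beyond 1.5-fold for 1 member, PCDHA11 at -0.63, whose value on the decitabine-labelled array comes from the first 9 columns. The share of all probes beyond 1.5-fold was not taken, so nothing is read from this count. Other members lay on both sides of 0: the difference was 0.40 for PCDHB14, 0.37 for PCDHA9, 0.29 for PCDHB13, 0.01 for the probe of PCDHB9 above background in all 6 channels and -0.31 for PCDHA8. A fixed dye preference does not cancel in this difference: it enters with its sign turned, and cannot be told apart from it. The 3 arrays may share their control RNA, which would enter this difference.

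Other protocadherins and cadherins were read the same way. Of 12 protocadherins whose genes lie outside the clusters, 7 were above background nowhere, against 26.8 % of all probes. Outside the first 9 columns 0 changed 1.5-fold on any array, where 4.01 % and 3.83 % of all probes outside them were higher and lower on the decitabine-labelled array, 1.98 % and 1.11 % on the carboplatin-labelled array and 5.62 % and 4.46 % on the combination-labelled array. The list is too short to read 0 against these shares, and PCDH15, which lies in them, had a log2 change of 0.75 on the decitabine-labelled array. PCDH1 was above background in all 6 channels, with log2 changes of 0.20, 0.12 and 0.03.

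Of 16 other cadherins, desmogleins and desmocollins, 9 were above background nowhere, against 26.8 % of all probes, and 2 were at least 1.5-fold lower on the decitabine- and combination-labelled arrays, against 3.6 % and 4.47 % of all. CDH1, the epithelial cadherin, had control signals of 23876, 24770 and 21745 units and log2 changes of -0.89, 0.04 and -0.85. CDH17, the cadherin of intestinal epithelium and the other gene called, was well above background in 4 of 6 channels; its treated signals of 58.9 and 61.9 units on these arrays were near those of negative control spots, against control signals of 162 and 165, so its change there has no measured size. CDH3, another classical cadherin, had -0.32, -0.20 and -0.21. In CDH1 and in PCDHB14 the changes on the decitabine- and combination-labelled arrays were the low ones.

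Genes known to regulate the clusters were well above background, 22 of 22 in all 6 channels, but the spot of EHMT2 on the decitabine-labelled array was an outlier and gave no change. On the decitabine-labelled array 3 of the other 21 were higher and 1 lower, against 9.14 % and 3.6 % of all probes, and the 3 (KDM1A, SMCHD1 and RAD21) lie in the first 9 columns. CBX1, a heterochromatin protein, was the lower one, with log2 changes of -0.76, -0.23 and -0.80. On the carboplatin-labelled array 1 was higher (EHMT2, a histone methyltransferase, at 0.63) and 1 lower (CBX5, at -0.67), against 2.01 % and 1.13 % of all probes, and on the combination-labelled array 0 were higher and 5 lower, against 5.69 % and 4.47 % of all probes: RAD21, SMC3, STAG2, CBX1 and CBX5. Without the first 9 columns, which hold RAD21 and CBX5, 3 were lower. RAD21, SMC3 and STAG2 are parts of cohesin, at -0.72, -0.67 and -0.61, and the other cohesin subunits of the list, SMC1A and STAG1, were at -0.20 and -0.43.

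CTCF, which binds the promoters of active members, had log2 changes of -0.06, -0.07 and -0.28. DNMT1, the maintenance DNA methyltransferase, had -0.28, 0.33 and -0.15, and DNMT3B, one that sets methylation anew, had -0.18, 0.44 and 0.38. None of these changed 1.5-fold. Of 7 genes of proteins that act with clustered protocadherins, such as the protease ADAM10 that cuts them and the kinase PTK2 (focal adhesion kinase) that their constant part binds, 0 changed 1.5-fold on any array, too few genes to read against the shares of all probes given above.

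Neighbouring genes within 1 Mb of the clusters were detected more often than the members. Of 51 such genes, 39 were above background in all 6 channels, against 63.0 % of all probes, and 9 in none. On the decitabine-labelled array 7 were higher and 2 lower (PSD2 at -0.76 and C5orf53 at -0.86), against 9.14 % and 3.6 % of all probes, but 5 of the 7 lie in the first 9 columns, and 2 were higher without them: HBEGF, a growth factor, at 0.93, and GNPDA1, an enzyme of amino sugar metabolism, at 0.66. On the carboplatin-labelled array 0 changed, and on the combination-labelled array 7 were higher and 1 lower (C5orf53, at -0.78), against 5.69 % and 4.47 % of all. The median log2 changes of the neighbours were 0.03, -0.02 and 0.03. TAF7, a general transcription factor gene between the beta and gamma clusters, had -0.14 and -0.05 on the carboplatin- and combination-labelled arrays, and its 1.23 on the decitabine-labelled array comes from the first 9 columns.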

How the data were processed

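The scanner files deposited by the authors give spot intensity per channel, read by Agilent Feature Extraction 9.5.3.1 per the file headers (the labels name another version), with background flags and a log10 ratio of red over green deposited alongside. The authors' table holds log2 ratios, loess normalized with limma and agilp and rounded, with background step and direction not stated; it was turned to treated over control by comparison with the scanner values.

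Mean intensities were corrected with normexp (offset 50) and normalized by loess in limma 3.58.1 (R 4.3.3), with spots of 1 probe averaged. Control and outlier spots had no weight, and no member spot was an outlier or saturated. Channel levels used Aquantile scaling. Called means at least 1.5-fold (log2 0.58). The script was tested on simulated data. Named probes were those called on an array with a channel above background, then those with the highest mean signal up to 20 in all, and the C-type members; others were named after their values were seen. Members, gene lists and the rule on the first 9 columns were chosen with earlier results of these data known. Of 48 probes 47 matched RefSeq by accession. No depth exists for arrays; signal over background stands in for it.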

Additional observations from a re-analysis of the deposited data

How the results depend on the processing

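No paired analysis was possible because each treatment is 1 array, and for the same reason no replicate could be left out. With 48 probes the counts of changed members are small and move readily. On the decitabine-labelled array the 1 higher member became 4 with the scanner software's log ratio, 2 with median signals, with an offset of 16 and with median centring, and 0 without the first 9 columns, in the authors' table and at 2-fold; the 2 lower members became 10, 6 and 0 with the scanner log ratio, median centring and 2-fold. On the carboplatin-labelled array the 1 higher member became 8, 2, 10 and 0 with the scanner log ratio, the offset of 16, median centring and 2-fold, and the 0 lower members became 4 and 1 with the scanner log ratio and median centring. On the combination-labelled array the 0 higher members became 2 and 1 with the scanner log ratio and the offset of 16, and the 1 lower member became 6 and 0 with the scanner log ratio and 2-fold. Under the scanner log ratio 11.3 and 11.5 % of all probes were higher and lower on the decitabine-labelled array. For the carboplatin-labelled array these shares were 7.35 and 6.78 %, and for the combination-labelled array 11.7 and 11.3 %. Under median centring they were 9.41 and 18.1 % on the decitabine-labelled array and 10.3 and 13.3 % on the carboplatin-labelled array. With the offset of 16, 11.3, 3.14 and 7.38 % were higher on the decitabine-, carboplatin- and combination-labelled arrays. The alpha median of 0.06 on the decitabine-labelled array became -0.24 with the scanner log ratio, -0.079 with median centring, -0.22 without the first 9 columns and -0.23 over probes above background. In the authors' table the alpha medians were -0.11 and -0.10 on the carboplatin- and combination-labelled arrays. Median centring gave beta medians of 0.22, 0.42 and 0.21, gamma medians of 0.25, 0.43 and 0.24, and a median of -0.44 for both drugs minus the sum. Over probes above background the beta median on the decitabine-labelled array was -0.33 and the gamma median on the carboplatin-labelled array 0.11. The change of PCDHA11 on the decitabine-labelled array reversed to -0.56 with the scanner log ratio. With outlier spots kept, as with the offset of 16, the 2 lower members on the decitabine-labelled array became 3. For other moves the cause was not tested. Low signal limits 25 of the 48 members.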

Other observations

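For 6 members there were 2 probes, and in each the probes differed in detection. PCDHB2, PCDHB13 and PCDHGA8 had 1 probe well above background in all 6 channels and another in none. PCDHB9 had 6 and 4 channels above background, PCDHB12 had 5 and 3, and PCDHGA7 had 6 and 1. The pseudogenes PCDHB17, PCDHB18, PCDHB19P and PCDHGB8P were well above background in no channel.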
